A study of Sus scrofa with 12 samples.

Results

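Newborn mammals move from placental glucose to milk fat within hours of birth, and the genes described here belong to the machinery that moves muscle between glucose and fat as fuel. The list held 10 gene symbols: the receptors PPARA and PPARD, the coactivators PPARGC1A and PPARGC1B, and the fuel genes PDK4, UCP2, UCP3, CPT1B, ANGPTL4 and FGF21. They were chosen by gene symbol with earlier results of these same animals known, among them the difference in FGF21 between the genetic types and the wide spread of several members, so their levels and differences are given as a description and no test of them is read as support. Of the 10 symbols, 8 matched a row among the 22861 genes of the table, and all 8 were among the 11875 genes tested. PPARGC1A and CPT1B matched no row that was used and were not analysed here.

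The PPARs are nuclear receptors that bind fatty acids, pair with an RXR receptor on DNA and switch on genes of fatty acid uptake and oxidation. The PGC1 coactivators, PPARGC1A and PPARGC1B, bind to such receptors and raise their output, and both are known for driving mitochondrial content in muscle and brown fat. PDK4, which phosphorylates and blocks pyruvate dehydrogenase, is a classic fasting gene of muscle and spares glucose when fat is burnt. UCP3 is a mitochondrial carrier of muscle and brown fat, whereas its close relative UCP2 is found in many tissues and is abundant in immune cells. ANGPTL4 is a secreted inhibitor of lipoprotein lipase, and FGF21 is a hormone that liver releases in fasting and that muscle makes under mitochondrial or amino acid stress.

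RNA was sequenced from Biceps femoris, a hind limb muscle, of male piglets at postnatal day 1. The animals were 6 purebred Iberian piglets (IB) and 5 crossbred piglets of Iberian sows and Duroc boars (IBxDU) with no treatment labelled, and 1 further IBxDU animal among the 12 labelled samples was not analysed here. By the study's design the IB litters were fewer than the 6 IB animals, so some IB animals are littermates. Crossbred littermates can be among the animals too. Which litter an animal came from is not stated in the labels, and p-values measure the spread between these animals alone. Values are RPKM as the authors deposited them, a read density per length of exon and per mapped read of the animal, which allows levels to be compared between genes.

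Between 16940746 and 30630149 exon reads per animal could be recovered from the values, 10819 to 12025 genes were above 0.5 RPKM in an animal, and the 10 most abundant genes held 31.3 to 38.6% of the summed RPKM. All 4 matched markers of muscle fibres were present in every animal, with a summed level of 32907 to 39266 RPKM in IB and 22846 to 51010 RPKM in IBxDU. IBxDU-402 stood apart: the sum of 5 macrophage markers, of which the study had named MARCO and MSR1 from these animals, was 151 RPKM there, against 20.1 to 54.8 RPKM in IB and 11.9 to 41.4 RPKM in the other IBxDU animals. Its summed slow fibre markers were at 879 RPKM, and those of IB-330 at 647 RPKM, against 2393 to 5431 RPKM in the other 9 animals. Many results that rest on IBxDU-402 are therefore given with and without it. In bulk muscle, fewer cells of a type and less RNA per cell cannot be told apart.

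By mean level over the 11 animals, PDK4 was highest at 382 ± 209 RPKM (SD, n = 11) and FGF21 lowest at 2.25 ± 3.74 RPKM. ANGPTL4 (38.6 ± 17.7 RPKM), UCP3 (34.7 ± 15.7 RPKM) and PPARA (20.1 ± 16.6 RPKM) followed PDK4, and then came PPARD (12.1 ± 4.06 RPKM), UCP2 (9.91 ± 6.15 RPKM) and PPARGC1B (7.54 ± 5.13 RPKM). Neighbours from ANGPTL4 to PPARGC1B in this order did not differ beyond their spread. The lowest PDK4 value, 77.8 RPKM in IBxDU-426, was at the level of the highest ANGPTL4 value, 77.7 RPKM in IB-323, and every other PDK4 value was above it. The plot of levels by animal shows each gene on its own scale.

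**Figure D1:**
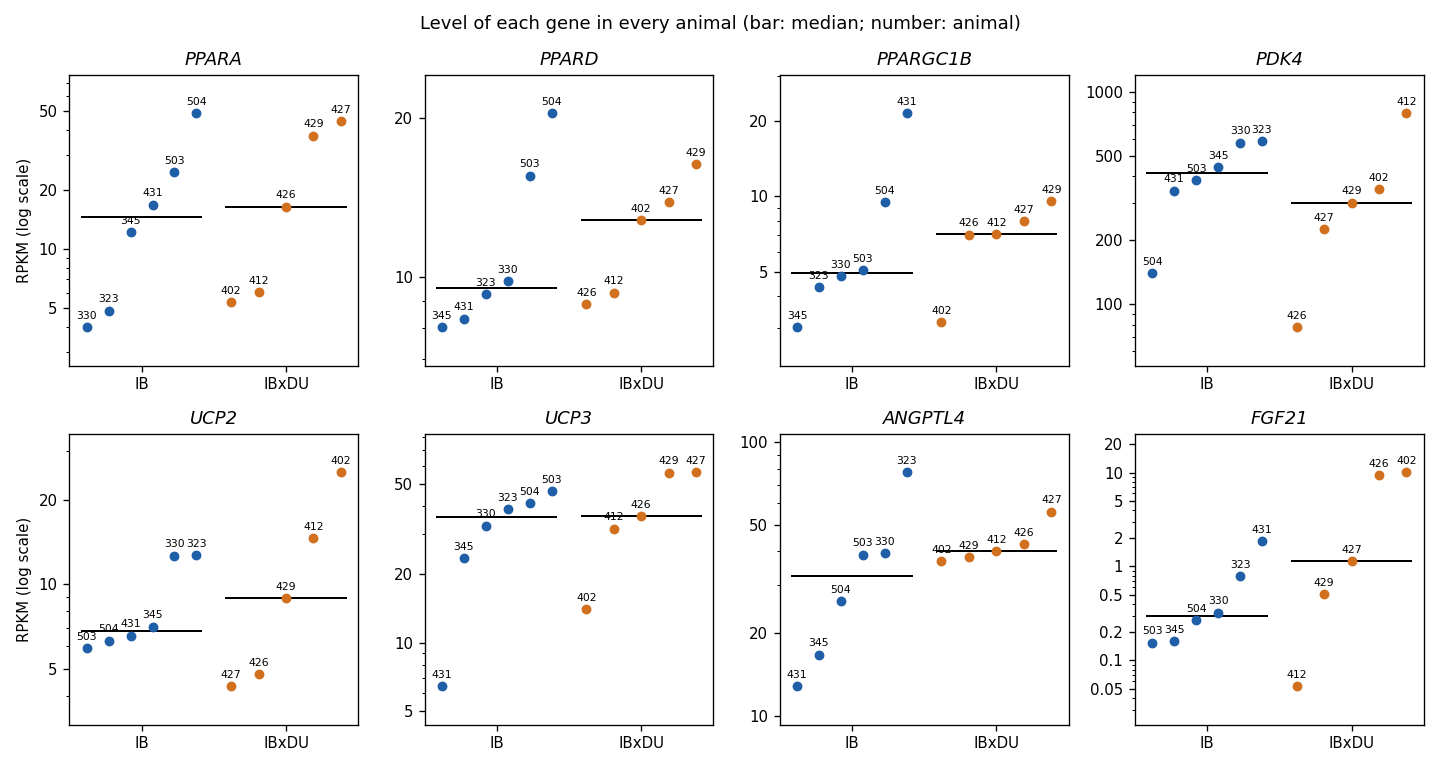
RPKM of the 8 genes in every animal on log axes, with 6 IB animals (blue) and 5 IBxDU animals (orange), the animal number beside each point and a bar at the median of the type. The types overlapped in each panel; PPARA ran from 4.0 to 48.9 RPKM within IB, and FGF21 stood at 10.1 and 9.37 RPKM in IBxDU-402 and IBxDU-426.

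The receptor PPARA was among the most variable genes of the muscle in both types. In IB it ran from 4.0 RPKM (IB-330) over a median of 14.5 to 48.9 RPKM (IB-504), a 12.2-fold range, and in IBxDU the values were 5.35 (IBxDU-402), 6.02 (IBxDU-412), 16.4 (IBxDU-426), 44.8 (IBxDU-427) and 37.7 RPKM (IBxDU-429). Low and high animals thus occurred in both types, and all 5 IBxDU values lay inside the IB range. The SD of its log2(RPKM + 0.1) was 1.37 in IB and 1.42 in IBxDU, larger than in 98.6% and 98.1% of the tested genes, where the median SD was 0.38 and 0.45. These values rested on 183 to 1831 reads per animal, so counting error was small beside the spread. PPARD, a form of the receptor that is expressed in most tissues, was steadier. It ran from 8.04 to 20.4 RPKM in IB (median 9.55) and was at 12.8, 9.35, 8.89, 13.9 and 16.4 RPKM in IBxDU-402, IBxDU-412, IBxDU-426, IBxDU-427 and IBxDU-429. Its SD of 0.54 in IB was above that of 74.4% of the tested genes, and the SD of 0.37 in IBxDU above that of 36.9%.

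The coactivator PPARGC1B was far higher in 1 IB animal than in the others. IB values ran from 3.02 RPKM (IB-345) over a median of 4.95 to 21.4 RPKM (IB-431), and the next highest IB animal, IB-504, was at 9.46 RPKM. The IBxDU values were 3.17, 7.07, 7.04, 7.97 and 9.55 RPKM in IBxDU-402, IBxDU-412, IBxDU-426, IBxDU-427 and IBxDU-429, all inside the IB range. The SD of log2 values was 1.00 in IB, above that of 95.7% of tested genes, and 0.60 in IBxDU, above that of 71.6%. IB-431 was at the same time the lowest IB animal for UCP3 (6.46 RPKM) and ANGPTL4 (12.8 RPKM) and the highest for FGF21 (1.86 RPKM).

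PDK4, the pyruvate dehydrogenase kinase, was abundant in every animal and had its widest range in IBxDU. In IB it ran from 140 RPKM (IB-504) over a median of 412.4 to 584 RPKM (IB-323), a 4.17-fold range. In IBxDU it was at 347 (IBxDU-402), 792 (IBxDU-412), 77.8 (IBxDU-426), 225 (IBxDU-427) and 300 RPKM (IBxDU-429). Both the highest and the lowest of the 11 values were IBxDU animals, and the other 3 lay inside the IB range. Its SD of log2 values was above that of 89.3% of tested genes in IB and 96.2% in IBxDU.

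UCP2 and UCP3 are neighbouring protein-coding genes in the Sscrofa11.1 annotation, with 0 such genes between them, yet their levels did not move together (r = -0.32 over the 11 animals and 0.03 without IBxDU-402). UCP3, the muscle form, ran from 6.46 (IB-431) over a median of 35.6 to 46.2 RPKM (IB-503) in IB and was at 14.0, 31.7, 35.9, 56.1 and 55.9 RPKM in IBxDU-402, IBxDU-412, IBxDU-426, IBxDU-427 and IBxDU-429. The lowest animal of each type stood apart from the others, which were at 23.5 RPKM or more. UCP2 ran from 5.90 (IB-503) over a median of 6.80 to 12.7 RPKM (IB-323) in IB and was at 25.2, 14.6, 4.77, 4.33 and 8.93 RPKM in the same order of IBxDU animals. For UCP2 the crossbreds held the 2 highest and the 2 lowest values of the 11. The SD of log2 values was 1.05 in IB and 0.82 in IBxDU for UCP3, above that of 96.5% and 87.0% of tested genes, and 0.51 and 1.06 for UCP2, above that of 70.1% and 94.1%.

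ANGPTL4, the lipoprotein lipase inhibitor, was the member whose spread differed most in rank between the types. IB values ran from 12.8 (IB-431) over a median of 32.5 to 77.7 RPKM (IB-323), with an SD of log2 values of 0.94 that was above that of 94.7% of tested genes. The IBxDU values were 36.7, 40.1, 42.3, 55.7 and 37.9 RPKM in IBxDU-402, IBxDU-412, IBxDU-426, IBxDU-427 and IBxDU-429, with an SD of 0.24, above that of 13.4% of tested genes. The difference in spread between the types was not tested. All 5 crossbreds lay inside the IB range.

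FGF21, the fasting and stress hormone, was the lowest member and the most variable one in IBxDU. In IB it ran from 0.155 (IB-503) over a median of 0.294 to 1.86 RPKM (IB-431), and in IBxDU it was at 10.1 (IBxDU-402), 0.0535 (IBxDU-412), 9.37 (IBxDU-426), 1.14 (IBxDU-427) and 0.505 RPKM (IBxDU-429). IBxDU-402 and IBxDU-426 were above every IB animal, whereas IBxDU-412 was below every IB animal. The SD of log2 values was 1.15 in IB, above that of 97.4% of tested genes, and 2.61 in IBxDU, above that of 99.9%. These values rested on few reads: 3 to 37 in IB, and 147, 1, 247, 19 and 8 in the IBxDU animals in that order. The exact 95% Poisson interval, which covers counting error only, was 0.00135 to 0.298 RPKM in IBxDU-412 and 8.53 to 11.9 RPKM in IBxDU-402. The interval of IB-431 (1.31 to 2.57 RPKM) overlapped that of IBxDU-427 (0.686 to 1.78 RPKM), and both were below those of IBxDU-402 and IBxDU-426 (8.24 to 10.6 RPKM).

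Across the list, the SD of log2 values was above the median of all tested genes for 8 of 8 members in IB and for 6 of 8 in IBxDU, where PPARD and ANGPTL4 were below it. It was above that of 90% of tested genes for 5 members in IB and 4 in IBxDU. The median SD over the members was 0.97 in IB and 0.94 in IBxDU, and 1 animal of each type bore much of it: the median was 0.66 without IB-431 and 0.62 without IBxDU-402. IBxDU-402 was the lowest crossbred for PPARA, PPARGC1B, UCP3 and ANGPTL4 and the highest for UCP2 and FGF21.

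The comparison of the genetic types asks whether purebred and crossbred newborns differed in these genes. The log2 fold change, IBxDU minus IB on the log2(RPKM + 0.1) scale, was largest for FGF21 at 1.66 (SE 0.97), with means of 0.592 ± 0.665 RPKM in IB (SD, n = 6) and 4.23 ± 5.04 RPKM in IBxDU (SD, n = 5). It was 1.00 without IBxDU-402, 1.03 without IBxDU-426 and 2.51 without IBxDU-412, and the scale understates the change of a gene this low. The next largest were ANGPTL4 at 0.51 (SE 0.37), PDK4 at -0.47 (SE 0.49) and UCP3 at 0.38 (SE 0.48). PPARA (0.25, SE 0.69), UCP2 (0.20, SE 0.41), PPARD (0.09, SE 0.26) and PPARGC1B (0.04, SE 0.43) followed. All but FGF21 and ANGPTL4 were within 1 SE of 0. The median of all tested genes was itself at 0.13, and at 0.01 after an upper quartile or a median-of-ratios scaling of the animals.

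In the fit over all genes with limma, 0 of 8 members passed a Benjamini-Hochberg adjusted p of 0.05 (adjusted p 0.643 to 0.983), where 0.0168% of the tested genes passed. At an unadjusted p under 0.05 the count was also 0 of 8, where 6% of the tested genes were higher and 2.02% lower in IBxDU. The types did not overlap for 0 of 8 members and for 1.04% of the tested genes. Because these contrasts were known when the members were chosen, nothing is read from the counts.

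The log2 fold change was above 0 for 7 of 8 members, but for 5 of 8 after either scaling, where PPARD (-0.03) and PPARGC1B (-0.08) fell below 0 with PDK4. For 5 members the sign also turned when 1 animal was left out: PPARA (-0.13 without IBxDU-427), PPARD (-0.02 without IBxDU-429), PPARGC1B (-0.17 without IB-345), UCP2 (-0.16 without IBxDU-402) and UCP3 (-0.03 without IB-431). Only FGF21 (1.00 to 2.51), ANGPTL4 (0.27 to 0.78) and PDK4 (-0.86 to -0.02) kept their sign over all 11 omissions, and did so with both scalings. The plot of differences sets each estimate beside the median of all genes.

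**Figure D2:**
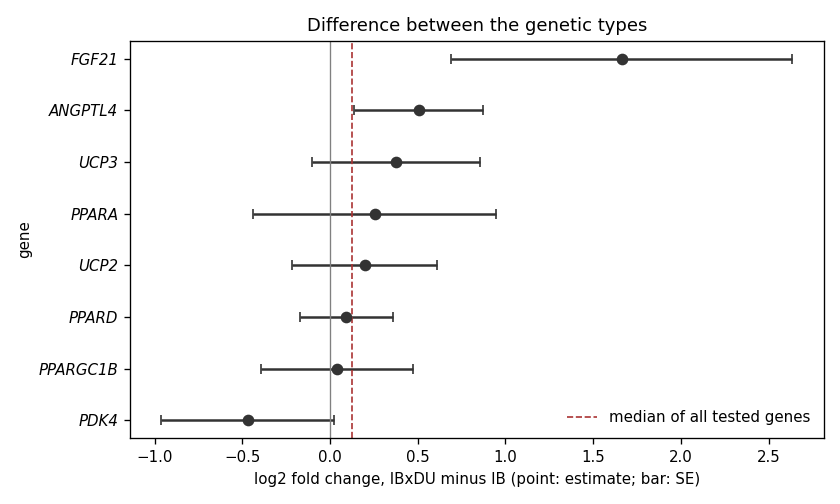
Log2 fold change of each gene, IBxDU minus IB, on the log2(RPKM + 0.1) scale from the fit over all genes, with points for the estimate, bars for the SE and a dashed line at the median of all 11875 tested genes (0.13). FGF21 had the largest estimate, 1.66, and the largest SE, 0.97.

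Whether the genes rose together was described with the Pearson r of each pair over the 11 animals, after the mean of the animal's type was taken from log2(RPKM + 0.1). The points share the scaling of their libraries, so each value is set beside all pairs of tested genes and no p is given. Of the 28 pairs of the 8 members, 12 were above 0 and 16 below, and the median r was -0.12. Over all pairs of tested genes the median r was 0.11, 59.1% were above 0, and the 5th and 95th percentiles were -0.59 and 0.73. No member pair lay above the 95th percentile, and 2 lay below the 5th percentile, both with PPARA. After upper quartile scaling the median of all pairs was 0.03 with 52.3% above 0, and 1 member pair lay below the 5th percentile and 0 above the 95th. After median-of-ratios scaling it was 0.0 with 49.9% above 0, and 1 member pair lay below and 1 above, UCP3 with ANGPTL4 at 0.71. PPARA with UCP2 was the pair below under both scalings. The median r of the member pairs was -0.12 and -0.10 with these scalings. The 8 genes did not rise as 1 group in these animals.

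The strongest opposite pairs were PPARA with UCP2 (r = -0.79, rho = -0.74) and PPARA with PDK4 (r = -0.62, rho = -0.75). IB-323, IB-330 and IBxDU-412, which had PPARA at 4.0 to 6.02 RPKM, were the 3 animals with the highest PDK4, at 575 to 792 RPKM. IBxDU-402, with PPARA at 5.35 RPKM, had PDK4 at 347 RPKM, and IBxDU-426, with the lowest PDK4 of all, had PPARA at 16.4 RPKM. IB-504, with the highest PPARA, had the lowest PDK4 of its type. Without the 2 animals farthest from the median of PPARA the values were -0.73 and -0.54, without IBxDU-402 they were -0.77 and -0.62, and in the 6 IB animals alone they were -0.91 and -0.90. PDK4 and UCP2 went the same way (r = 0.67, rho = 0.87, and r = 0.78 without IBxDU-402).

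Another set of positive pairs joined PPARA with PPARD (r = 0.64, rho = 0.50) and PPARA with PPARGC1B (r = 0.52, rho = 0.71). Without IBxDU-402 these were 0.74 and 0.41. UCP3 with ANGPTL4 was also positive (r = 0.66, rho = 0.62). The last was 0.47 without IB-431 and IBxDU-402, the animals farthest from the median of UCP3. UCP3 with PPARD was at 0.49 (rho = 0.73). The pair of PPARGC1B and UCP3 turned on IB-431 and IB-345, with r = -0.24 over all animals and 0.80 without them. FGF21 had no pair above 0.03 and was lowest with UCP3 (r = -0.52, but 0.08 without IB-431 and IBxDU-402) and with PDK4 (r = -0.49).

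**Figure D3:**
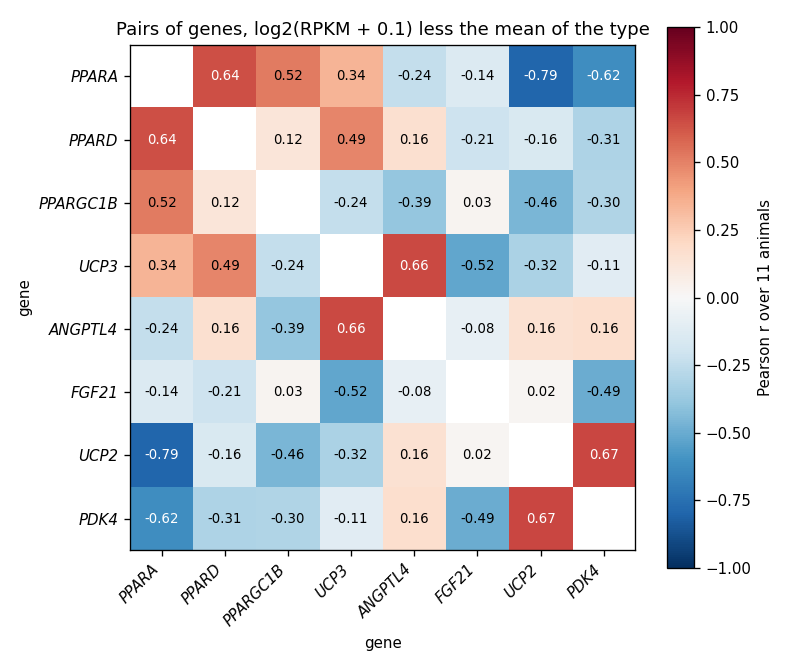
Pearson r over 11 animals for each of the 28 pairs of genes, on log2(RPKM + 0.1) less the mean of the genetic type, from blue (opposite) to red (together). The PPARA row holds both the 0.64 with PPARD and the -0.79 with UCP2, and the only value above 0.6 for PDK4 is 0.67 with UCP2.

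**Figure D4:**
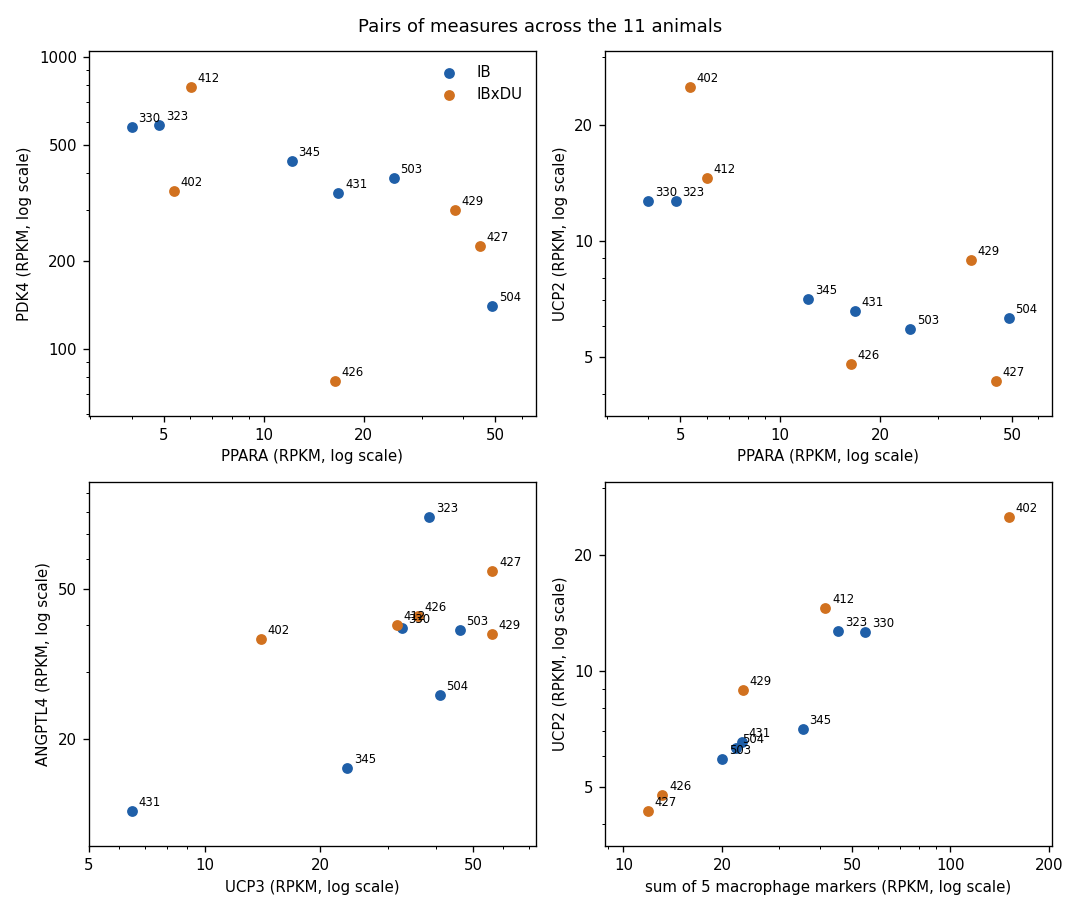
RPKM of pairs of measures in the 11 animals on log axes, with IB in blue and IBxDU in orange and the animal number beside each point. PDK4 (r = -0.62) and UCP2 (r = -0.79) were lower in animals with more PPARA, UCP3 and ANGPTL4 were both lowest in IB-431, and UCP2 followed the sum of 5 macrophage markers up to IBxDU-402 at 151 RPKM.

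Marker sums of other cell types moved with some of these genes. UCP2 followed the sum of 5 macrophage markers (5 of 8 listed markers matched) at r = 0.96, and at 0.97 without IBxDU-402, while PDK4 was at 0.58 (0.79 without it) and PPARA at -0.77 (-0.81 without it). PPARA was also at 0.73 (rho = 0.86, and r = 0.66 without IBxDU-402) with the 4 matched slow fibre markers. With the 3 matched red cell markers it was at -0.82 (-0.78 without IBxDU-402). Nearly all of that sum was HBB, at 285 to 723 RPKM, whereas ALAS2 was at 2.23 to 5.23 RPKM and SLC4A1 at 0.0256 to 0.376 RPKM. Of the macrophage sum C1QA held 7.78 to 95.1 RPKM. The slow fibre sum was 647 to 5431 RPKM in IB and 879 to 3835 RPKM in IBxDU, and the red cell sum 287 to 559 RPKM and 369 to 729 RPKM. The summed 4 adipocyte markers were at 28.2 to 104 RPKM in IB and 26.9 to 142 RPKM in IBxDU. Their sum was at r = 0.77 with UCP2 (0.65 without IBxDU-402) and 0.49 with PDK4 (0.50 without it). Of this sum PLIN4 held 17.8 to 53.3 RPKM and LIPE 6.00 to 28.6 RPKM in every animal. PLIN1 (0.154 to 55.9 RPKM) and CIDEC (0.188 to 34.0 RPKM) were near 0 in their lowest animals. The 4 endothelium markers were at 71.0 to 112 RPKM in IB and 74.0 to 134 RPKM in IBxDU. Their sum was at 0.65 with UCP2 (0.49 without IBxDU-402) and 0.58 with PDK4 (0.59 without it). No matched marker of these lists was at 0 in all animals, and their part in the pairs above was not tested.

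FGF21 is best known from liver, so liver markers were checked beside it. The sum of 7 liver markers was 34.4 to 56.2 RPKM in IB and 28.2 to 52.0 RPKM in IBxDU, of which APOA1 alone held 27.1 to 55.2 RPKM. Of the crossbreds with the most FGF21, IBxDU-402 had the highest liver sum of its type (52.0 RPKM) and IBxDU-426 the lowest (28.2 RPKM). The correlation of FGF21 with that sum was -0.04, and -0.43 without IBxDU-402. The other markers were low: ALB was at 0.306 to 1.80 RPKM and FGB at 0.153 to 0.744 RPKM, and AHSG was at 0 in 1 animal, APOC3 in 2, TTR in 7 and APOA2 in 9. Their part in the FGF21 values was not tested.

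For 4 of the members, the genes closest in pattern were read by rule as the 3 named genes of highest r among 8143. For PDK4 these were MME (r = 0.94), a membrane peptidase also known as neprilysin, FNDC4 (0.88) and PKIB (0.87), an inhibitor of protein kinase A. For UCP3 they were SAR1B (0.94), a GTPase of vesicle export from the endoplasmic reticulum, the mitochondrial protein FAM162A (0.91) and ND4 (0.89), a complex I subunit encoded by the mitochondrial genome. ANGPTL4 was closest to the glutathione transferase GSTM3 (0.89), the myogenic factor MYOD1 (0.83) and VDAC1 (0.79), the pore of the outer mitochondrial membrane. FGF21 was closest to SLC1A4 (0.90), a carrier of neutral amino acids, NT5DC1 (0.87) and ESS2 (0.85). The other members were read after their values were seen: PPARA was closest to UBN1 and TGS1 (both 0.96) and the clock repressor CRY1 (0.95), and UCP2 to the actin-capping gene CAPG (0.98), FLT4 (0.98) and the complement gene C1QA (0.97), which is itself on the macrophage list. PPARD was closest to ARF6 (0.93) and PPARGC1B to MN1 (0.96). The highest of so many values is large by selection, and no shared function is read from it.

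Related genes were described from lists of pathway members, of which 97 of 136 symbols matched and 94 were tested. In the fit over all genes 0 members of any list passed an adjusted p of 0.05 with limma, and the 26 named genes below had adjusted p of 0.405 to 0.975. Among the RXR partners and PGC1 cofactors, 13 of 21 tested genes were higher in IBxDU (median log2 fold change 0.09, 10 of 21 after either scaling). The 3 with the smallest p were KAT2A, an acetyltransferase that acts on PGC1 (0.55, SE 0.23), the estrogen-related receptor ESRRB (0.50, SE 0.29) and the corepressor NRIP1 (0.47, SE 0.30). At an unadjusted p under 0.05 the count was 1 of 21, KAT2A, where 6% of all tested genes were higher.

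The PPAR target genes of fatty acid use did not share a direction between the types: 6 of 17 were higher in IBxDU and 11 lower, with a median of -0.09 against 0.13 over all genes, and 4 of 17 were higher after either scaling. PNPLA2, the adipose triglyceride lipase that frees fatty acids from stored fat, was at 112 ± 27.2 RPKM in IB and 67.8 ± 10.7 RPKM in IBxDU. All 5 crossbreds, at 52.0 to 78.1 RPKM, were below the lowest IB animal at 83.3 RPKM. Its log2 fold change was -0.71 (SE 0.18, adjusted p 0.405 with limma and 0.230 to 0.934 over the alternatives), and at an unadjusted p under 0.05 it was the only 1 of 17 targets called, where 2.02% of all tested genes were lower. The median of the targets was above 0 without IB-323 (0.018) and without IB-345 (0.0037). PNPLA2 was a gene that the study had named from these animals. ACSL1 (0.25, SE 0.20), which activates long-chain fatty acids, and the peroxisomal and mitochondrial enzyme ECH1 (-0.25, SE 0.21) followed.

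Across animals the targets differed in which member they went with. PDK4 had r above 0 with 15 of the 17 (median 0.43, against 0.16 for PDK4 with all tested genes), the highest being the acyl-CoA dehydrogenase ACADL at 0.86. UCP2 had r above 0 with 12 of the 17 (median 0.45, against 0.17), and with 15 of 17 without IBxDU-402 (median 0.61, against 0.21). PPARA had r above 0 with 4 of the 17 (median -0.49, against -0.05), and with 2 of 17 without IBxDU-402. PPARGC1B (median -0.45, against 0.14) and PPARD (median -0.20, against 0.01) also had 4 of the 17 above 0, and FGF21 had 3 (median -0.16, against -0.02). The PPARGC1B value depended on IB-431: without that animal PPARGC1B had 6 of 17 (median -0.24, against 0.005). Without IBxDU-402 it had 2 of 17 (median -0.42, against 0.22). ANGPTL4 had r above 0 with 16 of 17 (median 0.33, against -0.11), and with 15 of 17 without IB-431 (median 0.17, against -0.02). UCP3 had 13 of 17 (median 0.16, against -0.17), but 6 of 17 without IB-431.

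On the pyruvate dehydrogenase switch, 6 of 10 genes were higher in IBxDU (median 0.10, 5 of 10 after either scaling). PDK2, another kinase of the complex, was at -0.33 (SE 0.19), PDK1 at 0.35 (SE 0.21) and the phosphatase PDP1, which reactivates the complex, at 0.37 (SE 0.22). Among the mitochondrial carriers 1 of 5 was higher (median -0.07), with the ADP/ATP carrier SLC25A4 at -0.13 (SE 0.19), the phosphate carrier SLC25A3 at -0.12 (SE 0.17) and SLC25A14 at 0.13 (SE 0.28). Of the lipoprotein lipase axis, 0 of 3 tested genes were higher. Besides PNPLA2 they were LMF1 (-0.14, SE 0.24), which matures the lipase, and the hormone-sensitive lipase LIPE (-0.06, SE 0.45), whose sign turned with single animals. LIPE, which also stood on the adipocyte marker list, went with UCP2 at r = 0.95, a value given with IBxDU-402 only.

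Fasting and glucocorticoid response genes were lower in IBxDU for 9 of 12 members (median -0.46), and for 11 of 12 after either scaling. The median was -0.27 without IB-504, -0.28 without IB-431 and as low as -0.63 without IB-330. TRIM63 and FBXO32 are ubiquitin ligases of muscle protein breakdown and FOXO3 is the factor known to drive them. TRIM63 was at 101 ± 33.6 RPKM in IB and 47.0 ± 15.8 RPKM in IBxDU (-1.10, SE 0.27), FBXO32 at 10.9 ± 4.57 and 3.34 ± 2.86 RPKM (-2.06, SE 0.53) and FOXO3 at 10.4 ± 5.65 and 4.70 ± 1.61 RPKM (-1.02, SE 0.36). At an unadjusted p under 0.05 the count was 4 lower and 0 higher of 12, where 2.02% of all tested genes were lower. The study had named TRIM63, FBXO32, FOXO3 and GLUL as changed in these animals and FOXO1 as a regulator, so the list is not independent evidence of its direction. PDK4, the fasting gene among the members, was at -0.47 with overlapping types. Across animals PDK4 did not go with this list, with r above 0 for 5 of 12 genes (median -0.13, against 0.16 for PDK4 with all tested genes). PPARGC1B had 11 of 12 (median 0.57, against 0.14), PPARA 11 of 12 (median 0.30, against -0.05) and PPARD 10 of 12 (median 0.30, against 0.01). UCP2 and FGF21 had 3 of 12 and ANGPTL4 had 1 of 12. UCP3 had 2 of 12, but 10 of 12 without IB-431.

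The genes of the FGF21 axis and the amino acid stress response were higher in IBxDU for 9 of 9 tested members, with a median of 1.03, and for 9 of 9 under both scalings and without any single animal. The median was 0.62 without IBxDU-402 and 0.62 without IB-345, and ran from there to 1.45 over the omissions. Of 11 matched genes, the receptors FGFR2 and FGFR3 were too low to be tested. ASNS, which makes asparagine, was at 18.9 ± 23.4 RPKM in IB and 52.1 ± 52.2 RPKM in IBxDU (1.84, SE 0.79), PSAT1 of serine synthesis at 4.42 ± 3.83 and 16.6 ± 18.2 RPKM (1.59, SE 0.76) and CHAC1, which degrades glutathione, at 8.72 ± 5.61 and 28.9 ± 32.2 RPKM (1.37, SE 0.72). The types overlapped for all 3, and at an unadjusted p under 0.05 the count was 1 of 9, ASNS, where 6% of all tested genes were higher. CHAC1 had been named by the study from these animals.

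FGF21 had r above 0 with 9 of these 9 genes (median 0.43, against -0.02 for FGF21 with all tested genes). The values ran from 0.22 for the receptor FGFR1 to 0.85 for SESN2, a stress-induced inhibitor of growth signalling, with CHAC1 at 0.71, PSAT1 at 0.70 and ASNS at 0.48. IBxDU-402 was highest for ASNS (141 RPKM) and PSAT1 (44.4 RPKM), and IBxDU-426 for CHAC1 (82.3 RPKM) and SESN2 (19.5 RPKM). These are the animals with the most FGF21. The count was 9 of 9 without IBxDU-402 (median 0.32), without IBxDU-426 (0.51) and without IB-431 (0.36). Each of these omissions left IBxDU-402, IBxDU-426 or both in place. Values without both are not given, so the counts do not show the pattern apart from these animals. UCP2 also went with this list, with 7 of 9 above 0 (median 0.42, against 0.17 for UCP2 with all tested genes). It had 7 of 9 without IBxDU-402 (median 0.32, against 0.21) and 9 of 9 without IBxDU-426 (median 0.47, against 0.09).

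Hypoxia response genes split 5 higher and 3 lower (median 0.06, 3 of 8 higher after either scaling). PFKFB4 was at -0.52 (SE 0.25) and PFKFB3 at 0.62 (SE 0.38), both regulators of glycolysis, and NDUFA4L2, read under the identifier of the gene table, at -0.29 (SE 0.17). The study had named NDUFA4L2 under another identifier, which was not used here. Immediate early genes, which respond within minutes to stimuli, were higher in IBxDU for 0 of 10 members (median -0.72), and for 3 of 10 without IBxDU-402. ATF3 ran from 12.1 to 1513 RPKM in IB and 14.1 to 53.5 RPKM in IBxDU (-2.14, SE 0.96), FOS from 24.4 to 823 and 10.7 to 183 RPKM (-1.70, SE 0.80) and EGR3 from 0.274 to 1.69 and 0.103 to 0.520 RPKM (-0.81, SE 0.42). At an unadjusted p under 0.05 the count was 1 of 10, ATF3, where 2.02% of all tested genes were lower. The study had named ATF3, FOS and NR4A3 from these animals, so this list is not independent evidence of its direction either. With a pseudocount of 1 the median was -0.39.

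PPARGC1B went with this list across animals, with r above 0 for 10 of 10 genes and a median of 0.76, against 0.14 for PPARGC1B with all tested genes. EGR1 was highest at 0.91, JUNB followed at 0.86, and EGR3 was lowest at 0.19. IB-431, which had PPARGC1B at 21.4 RPKM, was also highest for ATF3 and FOS, and without it the median was 0.67 with 10 of 10 above 0. Without IBxDU-402 the median was 0.73 with 9 of 10 above 0. The trait was not particular to PPARGC1B. PPARA had 8 of 10 above 0 (median 0.40, against -0.05 for PPARA with all tested genes). PPARD had 7 of 10 (median 0.22, against 0.01), and 8 of 10 without IB-431 (median 0.47, against 0.08). UCP3 had 3 of 10 (median -0.08, against -0.17), but 9 of 10 without IB-431 (median 0.57, against -0.04).

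**Figure D5:**
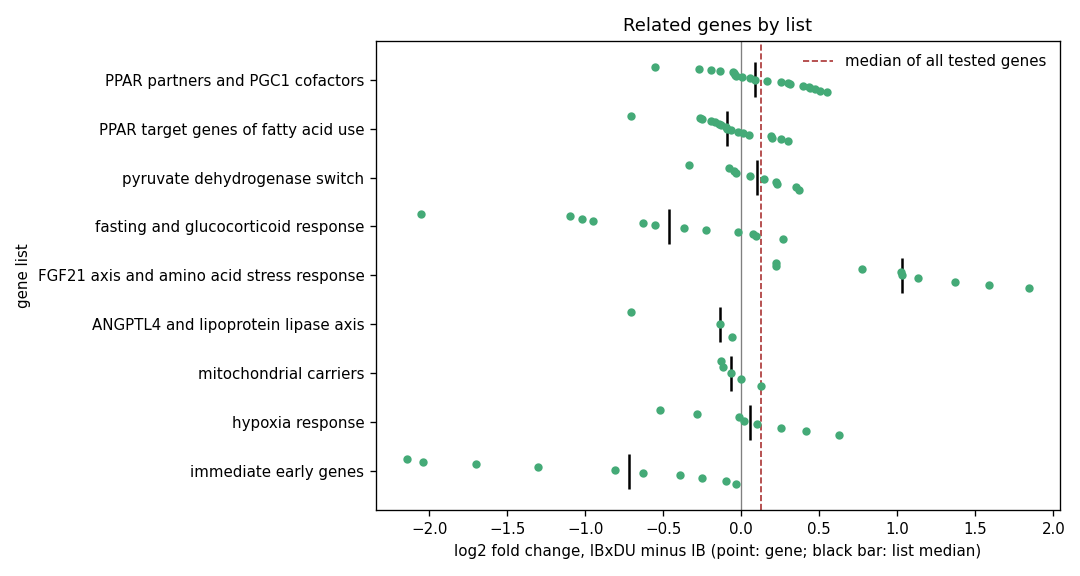
Log2 fold change, IBxDU minus IB, of each tested gene of the 9 related lists (points), with a black bar at the median of the list and a dashed line at the median of all tested genes (0.13). The 9 genes of the FGF21 axis and amino acid stress list lie above 0 (median 1.03) and the 10 immediate early genes below 0 (median -0.72, but 3 above 0 without IBxDU-402), and none passed the adjusted threshold.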

How the data were processed

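RNA of 12 Biceps femoris samples was sequenced in paired mode. The authors mapped the reads to Sscrofa10.2 in CLC Bio Genomic Workbench 7.0. The deposited values are RPKM per gene for 11 animals, beside an unadjusted p-value and a signed fold change of the types, columns that hold the authors' own comparison and were not used. RPKM divides by the mapped reads of an animal, so a few abundant genes can shift all others. The planned test on counts was replaced by the planned test for RPKM.

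Steps between low values gave whole reads, to within 0.02 reads, for 16953 of 16953 genes above 0 (100%). Names came from a gene table for 11450 identifiers and from the study's supplement for 29; 11382 had none. Genes with a mean above 0.5 RPKM in a type (11875) were compared as log2(RPKM + 0.1) with limma 3.58.1 (trended, R 4.3.3), type as the only effect, Benjamini-Hochberg threshold 0.05, tested first on simulated data. Correlations were computed with numpy 2.4.6 and scipy 1.17.1 under Python 3.11.15 (tables with pandas 2.3.3).

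The members, lists and markers were chosen with earlier results of these data known. Genes named were the members, from each list the 3 of smallest p, and the 3 genes of highest r for PDK4, UCP3, ANGPTL4 and FGF21. FGFR1, FGFR2, FGFR3, ALB, APOA1, FGB, AHSG, APOC3, APOA2, TTR, HBB, ALAS2, SLC4A1, ACADL, GLUL, FOXO1, NR4A3, EGR1, JUNB and SESN2 were added after their values were seen. Alternatives were a pseudocount of 1, no filter, both scalings, Spearman's rho, no centring, IB alone and each animal left out. With 8 members, 28 pairs replaced the planned set, and no likeness was read for PPARGC1A. Coordinates and sequences were not used here; gene order was read from Sscrofa11.1.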

Additional observations from a re-analysis of the deposited data

Results flagged for a closer look

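Within each type, each member's RPKM values, without logs, were checked for 1 animal far from the others, 16 groups in all. Chance alone marks about 1 in 20 such groups only if the values are normally distributed, which RPKM need not be. IB-431 was marked for both PPARGC1B, at 21.4 RPKM, and FGF21, at 1.86 RPKM, where the gap to the next IB animal took 0.650 and 0.631 of the range of the type, above the critical value of 0.625. The PPARGC1B value rests on 1631 reads and the FGF21 value on 37. IB-431 was also the highest animal for ATF3, at 1513 RPKM, and for the summed slow fibre markers, at 5431 RPKM. The part of these in its values was not tested.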

How the results depend on the processing

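Of all tested genes 2 passed the adjusted threshold higher in IBxDU and 0 lower (713 and 240 at an unadjusted p under 0.05), and the higher count was 1 with upper quartile scaling, 1 with median-of-ratios scaling and 1 to 2 over the omissions of 1 animal. The number of members above 0 was 7, and 4 to 7 over the omissions, with the 4 without IBxDU-429. The median SD of log2 values over the members was 0.97 in IB (0.66 to 1.06 over the omissions, lowest without IB-431) and 0.94 in IBxDU (0.62 to 1.03, lowest without IBxDU-402). The median r over the pairs of members was -0.12, and it was -0.018 in IB alone, -0.17 with Spearman's rho and -0.16 to -0.045 over the omissions, below 0 under each of these. The pairs above 0 numbered 10 to 13 under all alternatives. Among related genes, LMF1 ran from -0.31 to 0.0084 and LIPE from -0.34 to 0.21 over the omissions, both with a sign that turned. The number of list genes higher in IBxDU ran over the omissions from 9 to 16 of 21 for the PPAR partners, 4 to 10 of 17 for the PPAR targets, 5 to 8 of 10 for the pyruvate dehydrogenase switch, 2 to 4 of 12 for the fasting genes, 1 to 3 of 5 for the carriers, 0 to 1 of 3 for the lipase axis, 3 to 6 of 8 for hypoxia and 0 to 3 of 10 for the immediate early genes. The cause of these changes was not tested. Depth limits FGF21, which rested on 1 to 8 reads in 6 of the 11 animals. The litters are not given, and 6 against 5 animals with this spread leave wide errors on every member. No paired analysis was possible because, by the study's design, the types came from different sows and litters.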
